A study of Homo sapiens with 12 samples.

Results

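The genes described here write, keep and remove DNA methylation. They are the maintenance methyltransferase DNMT1 with UHRF1, UHRF2 and HELLS, the de novo methyltransferases DNMT3A and DNMT3B, and the dioxygenases TET1, TET2 and TET3. They were chosen by name and matched by symbol, which gave 9 of the 60648 genes in the count table. The RNA came from HCT116 cells, a line from a human colon carcinoma, grown in DMEM with fetal bovine serum and antibiotics and sequenced after poly-A selection. Of the 12 libraries, 3 were MTHFD2-WT (wild type) and 3 MTHFD2-KO (CRISPR-Cas9 knock-out) collected at the start (initial harvest), and 3 of each genotype were collected 2 months of growth later (final harvest). The knock-out was 1 clone, so every knock-out library shares whatever else sets that clone apart, and the labels do not say whether the wild-type cells were a clone. The series title ties MTHFD2, a folate enzyme known from mitochondria, to methylation at centromeres, and the comparisons below ask whether the mRNA of the methylation enzymes differed with the genotype or with the time in culture.

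When DNA is copied, the new strand carries no methyl groups. UHRF1 recognises the half-methylated sites and brings DNMT1, which copies the old pattern, while HELLS, a chromatin remodeller, opens packed chromatin to the methyltransferases. DNMT3A and DNMT3B set new methylation, DNMT3B also at centromeric repeats, and the TET enzymes oxidise methylated cytosine, which leads to its loss. Mutations of DNMT3B and of HELLS cause a syndrome of immunodeficiency, unmethylated centromeric repeats and unstable chromosomes.

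In brief, 7 of the 9 genes (77.8%) were called changed in none of the 6 comparisons, against 64.7% of all tested genes, and the share of all tested genes called in a comparison ran from 1.28% to 30.1%. UHRF2 fell by 25.6% in the knock-out over both harvests (log2 fold change -0.43, SE 0.0885, adjusted p = 0.00153, edgeR's quasi-likelihood test with Benjamini-Hochberg adjustment over 18289 genes). DNMT3B fell by 11.5% (log2 fold change -0.18, SE 0.0577, adjusted p = 0.0285 in the same edgeR test), a call that was lost under several alternative settings given below. DNMT1, the most abundant of them per length, had group means within a factor of 1.02.

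The promoters of 3 of the genes hold the letters of an E2F site, the element through which E2F factors drive genes of S phase, and they are shown because levels of S phase genes are set beside the members further on. UHRF2, the member with the firmest difference, is shown beside them. Each sequence is the strand of the gene, 5′ to 3′, from RefSeq on GRCh38.p14, and covers the 250 bases before a listed start and the 30 bases from it on. For UHRF1 the first of 3 listed starts was used. RefSeq starts need not be the gene starts of the deposited table. Capitals mark matches to TTTNNCGC on either strand, and the other letters are in lower case. DNMT1 lies on the minus strand at chr19:10194924-10195203, UHRF1 on the plus strand at chr19:4909251-4909530, HELLS on the plus strand at chr10:94545538-94545817 and UHRF2 on the plus strand at chr9:6412949-6413228.
DNMT1: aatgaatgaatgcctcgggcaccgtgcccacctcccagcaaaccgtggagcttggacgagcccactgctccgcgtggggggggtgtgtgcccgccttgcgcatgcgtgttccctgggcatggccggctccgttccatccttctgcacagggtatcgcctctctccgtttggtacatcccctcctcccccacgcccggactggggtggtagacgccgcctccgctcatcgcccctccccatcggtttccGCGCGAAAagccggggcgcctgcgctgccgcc
UHRF1: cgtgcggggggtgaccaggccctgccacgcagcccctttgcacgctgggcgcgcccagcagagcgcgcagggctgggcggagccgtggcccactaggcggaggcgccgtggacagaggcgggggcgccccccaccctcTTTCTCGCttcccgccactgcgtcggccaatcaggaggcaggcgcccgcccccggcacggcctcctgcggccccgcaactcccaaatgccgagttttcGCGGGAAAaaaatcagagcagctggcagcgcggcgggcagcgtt
HELLS: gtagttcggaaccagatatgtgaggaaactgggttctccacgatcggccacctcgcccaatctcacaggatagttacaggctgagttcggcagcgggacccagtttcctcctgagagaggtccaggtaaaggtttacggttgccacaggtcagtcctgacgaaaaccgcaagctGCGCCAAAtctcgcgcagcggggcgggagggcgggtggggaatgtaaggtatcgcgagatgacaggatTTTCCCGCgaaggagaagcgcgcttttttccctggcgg
UHRF2: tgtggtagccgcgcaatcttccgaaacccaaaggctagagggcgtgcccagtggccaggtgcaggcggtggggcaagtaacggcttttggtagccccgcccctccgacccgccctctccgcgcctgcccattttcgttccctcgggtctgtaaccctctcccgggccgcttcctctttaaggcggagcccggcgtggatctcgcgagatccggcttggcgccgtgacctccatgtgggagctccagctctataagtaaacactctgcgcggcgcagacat

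Counted from the start, the DNMT1 match began at position -2, the UHRF1 matches at -112 and -14, and the HELLS matches at -76 and -8. Searched over the full 300 bases of each listed start (250 before and 50 from it on), the motif was in 4 of the 20 windows of the 9 genes (20%), those of DNMT1, HELLS and 2 starts of UHRF1, against 6.89% of 35116 RefSeq windows of the same length. The windows of UHRF2, DNMT3A, DNMT3B, TET1, TET2 and TET3 did not hold these letters. The 20 windows include 6 of DNMT3A and 3 each of UHRF1 and TET1, some of them overlapping. They are therefore not separate cases, and the matches came from 3 genes. The letters CCAAT, searched on both strands as well, were in 7 of the 20 windows (35%) against 34.6% of all windows. The DNMT1, UHRF1, HELLS and UHRF2 windows held 30, 36, 22 and 26 CpG dinucleotides, against a median of 14 over all windows, and the DNMT3B window held 3. That DNMT3B window, at chr20:32779602-32779901, lies inside the gene, which starts at 32762385 in the count table. Its letters therefore do not describe the sequence before that gene start. The DNMT1, UHRF1 and HELLS windows also lie inside the genes as the count table bounds them. A match describes letters and does not show that a factor binds.

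Library totals lay between 38597809 and 40017561 counts. MTHFD2 gave 319 to 457 CPM (TMM-scaled CPM, counts relative to the scaled library total, the unit of all levels below) in the 6 wild-type libraries and 123 to 155 CPM in the 6 knock-out libraries, a log2 fold change of -1.59 at the initial harvest (SE 0.108, adjusted p = 3e-08 in edgeR) and -1.38 at the final one (SE 0.107, adjusted p = 1.09e-07 in edgeR). MTHFD2 RNA was lower but present in the knock-out. Of 8 colon epithelial markers EPCAM, CDH1, KRT8, KRT18 and KRT19 carried nearly the whole sum and CDX1 was at 0 in 11 libraries, with summed levels of 2620 to 3230 and 3060 to 3200 CPM in the wild type (initial, final) and 2470 to 2700 and 2210 to 2590 CPM in the knock-out. Of 7 markers of other cell types CD3E was at 0 in every library and the sums of 42.2 to 81.4 CPM came mostly from COL1A1. The sums hide differences of single markers. At the initial harvest the log2 fold change of knock-out over wild type was -1.01 for CDH1 and -0.36 for EPCAM, both called. KRT8 (-0.02), KRT18 (-0.25), KRT19 (-0.22) and CDX2 (0.19) were not called. COL1A1 was called lower (-0.6), and the scarcer ACTA2 (0.91) and ALB (1.35) were called higher. At the final harvest EPCAM (-0.31), CDH1 (-0.44), KRT18 (-0.36) and KRT19 (-0.54) were called lower. KRT8 (-0.34) and CDX2 (0.01) were not called there. COL1A1 (-0.48) was again called lower, and ACTA2 (0.81) and ALB (1.38) higher. The part of either marker list in the differences below was not tested. Deviations from the group mean were fitted on transcript length and GC content together, over genes with a mean log2 CPM of 1 or more. The length slopes of the initial wild-type libraries 1 and 2 were 0.059 and -0.069 per doubling, against -0.027 to 0.032 in the other 10. Such slopes compare a library with its own group and do not show a trend that a whole group shares. In bulk RNA, fewer cells with an RNA and less of it per cell cannot be told apart, and the labels call the 3 libraries of a group biological replicates without naming separate cultures.

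All 9 genes passed the filter on low counts, with 161 counts (TET1) or more in every library. Per kilobase of the exon length in the table, DNMT1 was the most abundant at 31.0 CPM per kb, followed by UHRF1 (15.3), DNMT3B (12.8), HELLS (11.1), UHRF2 (5.37), TET3 (4.07), DNMT3A (2.60), TET2 (1.76) and TET1 (0.579). The table's length joins all annotated exons of a gene, 15379 bases for DNMT1 where its longest transcript in GENCODE 29 has 5408. Per kilobase of that longest transcript, DNMT1 stayed at the top with 88.2 and TET1 at the bottom with 0.600, and HELLS, UHRF1, UHRF2 and DNMT3B followed DNMT1 in that order at 22.7, 18.2, 14.3 and 13.7. Among the 3 DNMT genes, DNMT1 made up 65.1% to 68.2% of the summed level per kb of table length in the 4 groups, DNMT3B 26% to 30.1% and DNMT3A 4.82% to 6.18%. These shares depend on the length used. Per kb of the longest transcript DNMT1, DNMT3B and DNMT3A stood at 88.2, 13.7 and 3.77, which gives DNMT1 a larger share and DNMT3B and DNMT3A smaller ones.

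**Figure D1:**
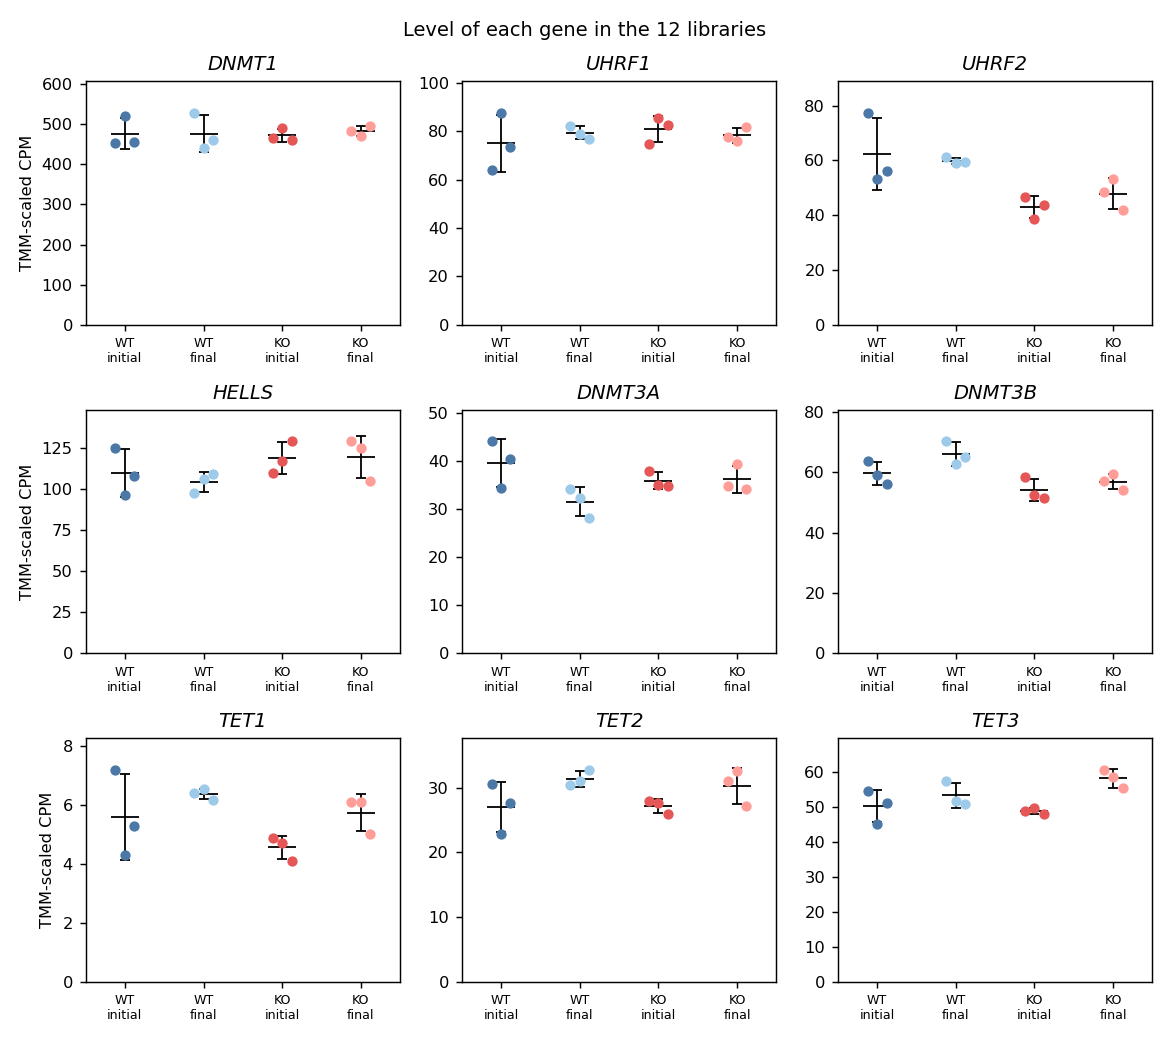
Levels of the 9 genes as TMM-scaled CPM (vertical axes, each from 0) in the 12 libraries, 3 per group, with group means and SDs as bars. UHRF2 lies lower in the 6 knock-out libraries (38.8 to 53.2 CPM) than in the 6 wild-type libraries (53.4 to 77.4 CPM), and the DNMT1 group means lie between 472 and 483 CPM.

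DNMT1 (ENSG00000130816.17, hg38 chromosome 19, 10133342 to 10231286, minus strand) gave 452, 520 and 456 CPM in the initial wild-type libraries and 528, 440 and 461 CPM in the final ones. The knock-out libraries gave 466, 489 and 460 CPM at the initial harvest and 483, 471 and 494 CPM at the final one. The knock-out values all lay inside the wild-type range, and both the highest and the lowest value were from final wild-type libraries. The genotype difference over both harvests was 0.00 on the log2 scale (SE 0.0632, 95% interval -0.13 to 0.14, adjusted p = 0.98 in edgeR). Among the tested genes 0.17% had a smaller ratio of highest to lowest group mean, and the median gene had 1.30. These genes were not matched for level, and DNMT1 was more abundant than 98.8% of them. Its exons share 83 bases, 0.54% of their length, with S1PR2 on the same strand, which had a mean of 510.1 counts against 18780.8 for DNMT1.

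UHRF1 (ENSG00000276043.5, chromosome 19, 4903080 to 4962154, plus strand) gave 64.0, 87.7 and 73.5 CPM in the initial and 82.3, 78.8 and 77.0 CPM in the final wild-type libraries. In the knock-out it gave 75, 85.4 and 82.5 CPM, then 77.6, 75.9 and 81.9 CPM. The groups overlapped, and the widest spread was among the 3 initial wild-type libraries, whose replicates 1 and 2 hold the lowest and the highest value of all 12. The genotype difference was 0.11 at the initial harvest (SE 0.0982, 95% interval -0.10 to 0.32, adjusted p = 0.486) and -0.02 at the final one (SE 0.0982, 95% interval -0.22 to 0.19, adjusted p = 0.936, both edgeR).

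UHRF2, a paralog of UHRF1 that binds methylated DNA but does not stand in for UHRF1 in copying methylation (ENSG00000147854.17, chromosome 9, 6413151 to 6507054, plus strand), gave 77.4, 53.4 and 56.1 CPM in the initial wild-type libraries. The final wild-type libraries gave 61.2, 59.0 and 59.3 CPM. The knock-out gave 46.5, 38.8 and 43.9 CPM at the initial harvest and 48.5, 53.2 and 42.0 CPM at the final one. Every knock-out library lay below every wild-type library, by the narrow step from 53.2 to 53.4 CPM across harvests, and initial wild-type replicate 1 stood well above the rest.

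UHRF2 was the 1 member of 9 called at the initial harvest, where 19.9% of all tested genes were called in either direction and 11.3% as lower, so the members' share of 11.1% was not above the background. Its mean fell from 62.3 ± 13.1 to 43.1 ± 3.95 CPM (SD, n = 3 each), a log2 fold change of -0.53 (SE 0.125, 95% interval -0.80 to -0.27, adjusted p = 0.00622 in edgeR). Without initial wild-type replicate 1 the log2 fold change was -0.35 (adjusted p = 0.0261 in edgeR), the smallest value when any 1 of the 12 libraries was left out, and all 12 kept the call. With the transcript-length trend of each library removed it was -0.53 (adjusted p = 0.00615), and with the GC trend removed -0.50 (adjusted p = 0.00969, both edgeR).

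At the final harvest the UHRF2 means were 59.8 ± 1.19 CPM in the wild type and 47.9 ± 5.62 CPM in the knock-out (SD, n = 3 each), and the groups did not overlap. The log2 fold change was -0.32 (SE 0.125, 95% interval -0.59 to -0.05), which missed the threshold after adjustment (adjusted p = 0.0905 in edgeR). It passed when only the 6 final libraries were fitted (adjusted p = 0.0386), without a filter on low counts (adjusted p = 0.0181) or without initial wild-type replicate 1 (-0.32, adjusted p = 0.0168, all edgeR). It stayed uncalled in DESeq2 (adjusted p = 0.0833), in limma-voom (adjusted p = 0.085) and with upper quartile scaling (-0.29, adjusted p = 0.148 in edgeR). Without final knock-out replicate 3 it was -0.24 (adjusted p = 0.257 in edgeR), the smallest value with a library left out. Whether the genotype difference changed between harvests was tested as an interaction, which was 0.21 (SE 0.177, 95% interval -0.16 to 0.59, adjusted p = 0.671 in edgeR). Without initial wild-type replicate 1 the interaction was 0.02 (adjusted p = 0.984 in edgeR). The CPM ratio of UHRF2 to UHRF1 within a library was 0.861 ± 0.311 and 0.754 ± 0.0143 in the wild type (initial, final) and 0.536 ± 0.0833 and 0.613 ± 0.0946 in the knock-out (SD, n = 3 each). The lowest initial wild-type ratio, 0.609, lay inside the knock-out range of 0.454 to 0.701. The processed copy UHRF2P1 had at most 1 count in a library.

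Around UHRF2, 9 other genes whose mean log2 CPM was 1 or more lie within 1 Mb on either side, and 7 of them were below 0 in the average genotype comparison, with 3 called lower and 0 called higher. In that comparison 16.1% of all tested genes were called lower and 14% higher, and 9 genes are too few to set the region apart. The median of the 9 was -0.19 on the log2 scale at the initial harvest and -0.06 later. By the likeness rule, the genes whose log2 CPM followed UHRF2 most closely over the 12 libraries were HSD17B11 (Pearson r = 0.983), METTL7A (r = 0.976) and SERINC1 (r = 0.958), out of 12608 genes. These values describe libraries that share the same genotype contrast and carry no test.

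HELLS (ENSG00000119969.15, chromosome 10, 94501434 to 94613905, plus strand) gave 125, 96.3 and 108 CPM in the initial and 97.5, 106 and 109 CPM in the final wild-type libraries. The knock-out gave 110, 117 and 129 CPM and then 129, 125 and 105 CPM. The groups overlapped at both harvests. The difference over both harvests was 0.16 (SE 0.0738, 95% interval 0.00 to 0.31, adjusted p = 0.124 in edgeR), not called. With the GC trend of each library removed, a step chosen after seeing the data, HELLS was called at 0.20 (adjusted p = 0.00432 in edgeR), and without initial wild-type replicate 1 it was called at 0.21 (adjusted p = 0.0291 in edgeR). HELLS has the lowest GC content of the 9 genes, 37.6% in its longest transcript. Of its exon length 4.32% is shared with ENSG00000244332, which had a mean of 2.9 counts.

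**Figure D2:**
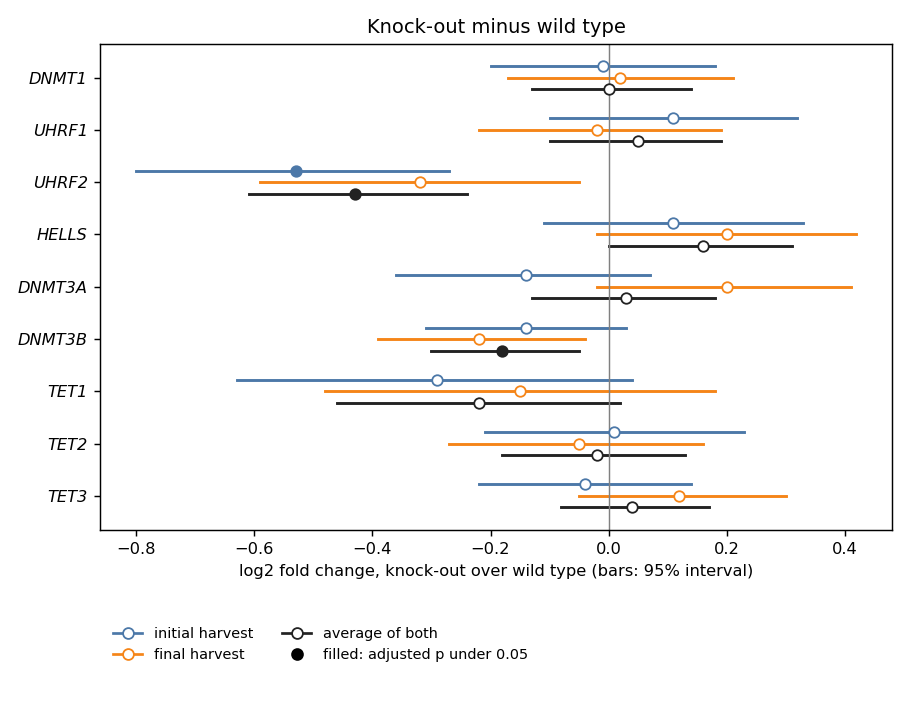
Log2 fold change of knock-out over wild type for the 9 genes (horizontal axis), for each harvest and for their average, with unadjusted 95% intervals and filled points where the adjusted p-value was under 0.05. The filled points are UHRF2 at the initial harvest (-0.53), UHRF2 on average (-0.43) and DNMT3B on average (-0.18).

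DNMT3A (ENSG00000119772.18, chromosome 2, 25227855 to 25342590, minus strand) gave 44.1, 34.3 and 40.5 CPM in the initial wild-type libraries and 34.1, 32.4 and 28.2 CPM in the final ones. The knock-out gave 37.9, 35.0 and 34.8 CPM and then 34.9, 39.4 and 34.2 CPM. All 3 final wild-type libraries lay below the other 9, by the narrow step from 34.1 to 34.2 CPM. The genotype difference was -0.14 at the initial harvest (SE 0.102, adjusted p = 0.362) and 0.20 at the final one (SE 0.103, adjusted p = 0.214, both edgeR), with groups that overlapped at the first and did not at the second. The interaction was 0.34 (SE 0.145, 95% interval 0.03 to 0.65, unadjusted p = 0.0314, adjusted p = 0.34 in edgeR), so a change of the genotype difference between harvests was not called.

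DNMT3B (ENSG00000088305.18, chromosome 20, 32762385 to 32809356, plus strand) gave 63.7, 59.2 and 56.0 CPM in the initial wild-type libraries and 70.3, 62.7 and 65.2 CPM in the final ones. In the knock-out it gave 58.4, 52.6 and 51.6 CPM and then 57.0, 59.4 and 54.3 CPM. The groups overlapped at the initial harvest and were separate at the final one, where the means were 66.1 ± 3.89 and 56.9 ± 2.54 CPM (SD, n = 3 each). The difference was -0.14 at the initial harvest (SE 0.0816, adjusted p = 0.264) and -0.22 at the final one (SE 0.0816, adjusted p = 0.0804, both edgeR). The average over both harvests, -0.18, was called, and with UHRF2 that made 2 of 9 members (22.2%) in a comparison in which 30.1% of all tested genes were called and 16.1% as lower.

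The DNMT3B call did not hold under every setting. It was lost with upper quartile scaling (adjusted p = 0.0645), without a filter on low counts (adjusted p = 0.0681) and when any of 6 libraries was left out, with adjusted p from 0.053 to 0.0772, all in edgeR. Those libraries were initial wild-type replicate 1, final wild-type replicate 1, initial knock-out replicates 2 and 3 and final knock-out replicates 1 and 3. The log2 fold change stayed between -0.18 and -0.15 in these fits. The CPM ratio of DNMT3A to DNMT3B was 0.665 ± 0.0756 in the initial wild type, 0.663 ± 0.0125 in the initial knock-out and 0.635 ± 0.0264 in the final knock-out, against 0.478 ± 0.0418 in the final wild type (SD, n = 3 each), whose range of 0.433 to 0.516 lay below the others. The genes most like DNMT3B over the 12 libraries were ARMC12 (r = 0.958), FRRS1 (r = 0.94) and PMEL (r = 0.936), and those most like HELLS were G2E3 (r = 0.955), ENSG00000280120 (r = 0.945) and TOR1AIP2 (r = 0.932), again as a description.

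Of the oxidising enzymes, TET1 (ENSG00000138336.9, chromosome 10, 68560337 to 68694487, plus strand) was the scarcest. It gave 7.2, 4.3 and 5.28 CPM in the initial and 6.4, 6.54 and 6.18 CPM in the final wild-type libraries, then 4.87, 4.71 and 4.11 CPM in the initial and 6.11, 6.1 and 5.02 CPM in the final knock-out libraries. The genotypes overlapped at the initial harvest and were separate at the final one, by the step from 6.11 to 6.18 CPM. The difference over both harvests was -0.22 (SE 0.112, 95% interval -0.46 to 0.02, adjusted p = 0.152 in edgeR). Without initial wild-type replicate 2 it was called at -0.30 (adjusted p = 0.0268) and at the initial harvest at -0.46 (adjusted p = 0.034, both edgeR). Without initial wild-type replicate 1 the values were -0.11 (adjusted p = 0.418) and -0.07 (adjusted p = 0.813, both edgeR), so the size of the TET1 difference rested on these 2 libraries.

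TET2 (ENSG00000168769.14, chromosome 4, 105145875 to 105279816, plus strand) gave 30.6, 22.9 and 27.6 CPM and then 30.4, 31.0 and 32.8 CPM in the wild type, and 27.9, 27.7 and 25.9 CPM and then 31.0, 32.6 and 27.2 CPM in the knock-out. The genotypes overlapped at both harvests. The difference over both harvests was -0.02 (SE 0.0729, 95% interval -0.18 to 0.13, adjusted p = 0.852 in edgeR).

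TET3 (ENSG00000187605.16, chromosome 2, 73984910 to 74108176, plus strand) gave 54.5, 45.2 and 51.0 CPM and then 57.4, 51.8 and 50.8 CPM in the wild type. The knock-out gave 48.8, 49.6 and 48.0 CPM and then 60.6, 58.4 and 55.4 CPM. The genotypes overlapped at both harvests, and the difference over both was 0.04 (SE 0.059, 95% interval -0.08 to 0.17, adjusted p = 0.643 in edgeR). TET3 ends 77996 bases before MTHFD2, the edited gene, and the tested genes between them, BOLA3, BOLA3-DT and MOB1A, were at 0.17, 0.00 and 0.08 on average, none of them called. TET3 held 61.5% to 64.9% of the summed TET level per kb of table length in the 4 groups, TET2 26.5% to 28.5% and TET1 8.04% to 9.92%.

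At the final harvest 0 of the 9 genes were called between genotypes, against 18.5% of all tested genes. DESeq2 and limma-voom called 0 as well, and 2 genes, UHRF2 and DNMT3B, had an unadjusted p under 0.05 in edgeR. Group ranges did not overlap for 4 of 9 genes (DNMT3A, DNMT3B, UHRF2 and TET1), against 33.1% of all tested genes. At the initial harvest they did not overlap for 1 of 9, UHRF2, against 35.5%. The median absolute log2 fold change of the 9 genes was 0.11 initially, 0.15 at the later harvest and 0.05 on average, where the medians over all tested genes were 0.203, 0.19 and 0.172. The tested genes were not matched for level. In level the 9 stood above 40.7% (TET1) to 98.8% (DNMT1) of them.

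Between harvests, edgeR called 0 of the 9 genes in the wild type, where 6.47% of all tested genes were called, and 0 in the knock-out, where 1.48% were. The wild-type gene nearest to a call was DNMT3A, at -0.33 (SE 0.102, 95% interval -0.55 to -0.11, adjusted p = 0.0693 in edgeR), the 1 gene with an unadjusted p under 0.05 and the 1 of 9 whose harvests did not overlap, against 22.2% of all tested genes. DESeq2 called it (adjusted p = 0.0333) and limma-voom called 0 of the 9. Without initial wild-type replicate 2 it was called at -0.43 (adjusted p = 0.0147), and without final wild-type replicate 1 at -0.40 (adjusted p = 0.0395, both edgeR). These were the 2 calls among the 12 fits with a library left out. Over the 12 fits the DNMT3A value ran from -0.43 to -0.25, with adjusted p up to 0.284 in edgeR. Deviations of DNMT3A from its group means moved with the length slope of the libraries (Pearson r = 0.87, 12 libraries). With the length trend removed, a step chosen after seeing the data, it was called at -0.32 (adjusted p = 0.0278 in edgeR).

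In the knock-out, the gene nearest to a call was TET3, from 48.8 ± 0.799 to 58.1 ± 2.60 CPM (SD, n = 3 each), at 0.25 (SE 0.0835, 95% interval 0.08 to 0.43, unadjusted p = 0.00815, adjusted p = 0.158 in edgeR). It was the 1 gene with an unadjusted p under 0.05, and DESeq2 and limma-voom called 0 of the 9. TET3 and TET1 were the 2 of 9 genes whose harvests did not overlap, against 23.2% of all tested genes. The summed CPM of the 3 TET genes was 82.8 ± 9.99 and 91.1 ± 2.66 in the wild type (initial, final) and 80.6 ± 2.23 and 94.1 ± 5.69 in the knock-out (SD, n = 3 each), and the time comparison of each TET gene was above 0 in both genotypes, from 0.09 to 0.33, none called. With all libraries kept, other settings gave 0.24 to 0.34 (TET1), 0.05 to 0.17 (TET2) and 0.14 to 0.29 (TET3) in the knock-out. In the wild type they gave 0.18 to 0.22, 0.2 to 0.23 and 0.08 to 0.1. Over the 12 libraries, deviations of TET1, TET2 and TET3 from their group means moved with the length slope (Pearson r = 0.87, 0.85 and 0.89), so the 3 genes are not separate observations. The trend was not particular to them. The same r was 0.87 for DNMT3A, 0.76 for UHRF2, 0.6 for DNMT3B, 0.52 for HELLS, -0.26 for DNMT1 and -0.78 for UHRF1. For the interaction edgeR, DESeq2 and limma-voom each called 0 of 9, against 1.28% of all tested genes in edgeR, with DNMT3A the 1 gene at an unadjusted p under 0.05.

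**Figure D3:**
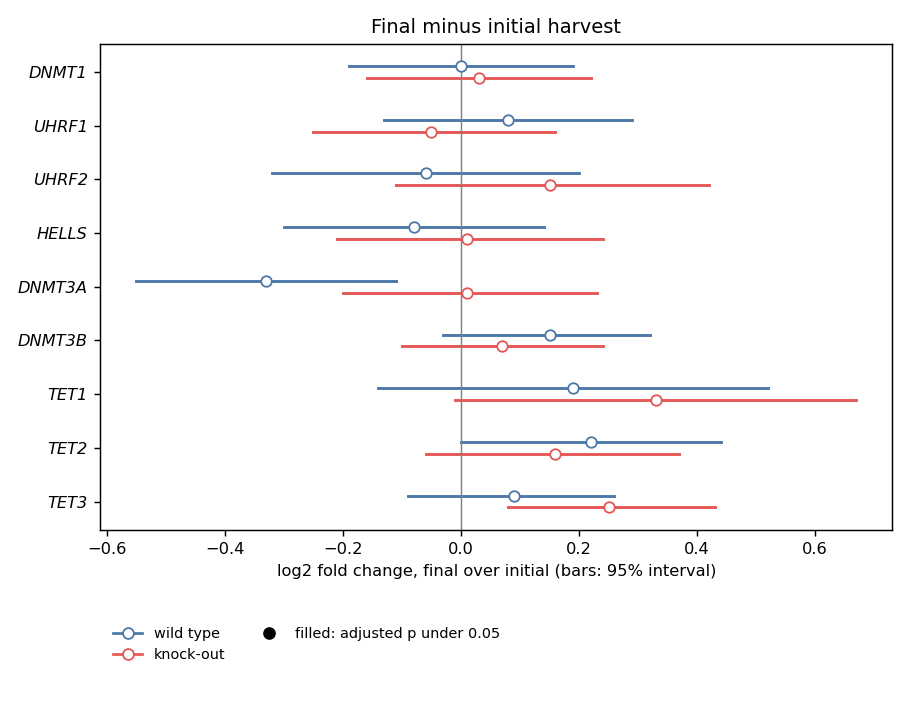
Log2 fold change of the final over the initial harvest for the 9 genes (horizontal axis), separately for each genotype, with unadjusted 95% intervals. No point is filled, since no adjusted p-value was under 0.05; DNMT3A in the wild type (-0.33) lies farthest below 0 and TET1 in the knock-out (0.33) farthest above.

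The spread within the initial wild type moved with the length trend of its libraries. Replicate 1, with a slope of 0.059 per doubling of length, deviated from its group mean on the log2 scale by 0.333 for UHRF2, 0.394 for TET1 and -0.218 for UHRF1. Replicate 2, with a slope of -0.069, deviated by -0.202, -0.344 and 0.236. The 2 libraries thus lay on opposite sides for these genes, with UHRF1 opposite to UHRF2 and TET1, and the part of library quality in these deviations was not tested. With the length trend removed the UHRF2 difference over both harvests was -0.41 (adjusted p = 0.00201 in edgeR), against -0.43 without.

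**Figure D4:**
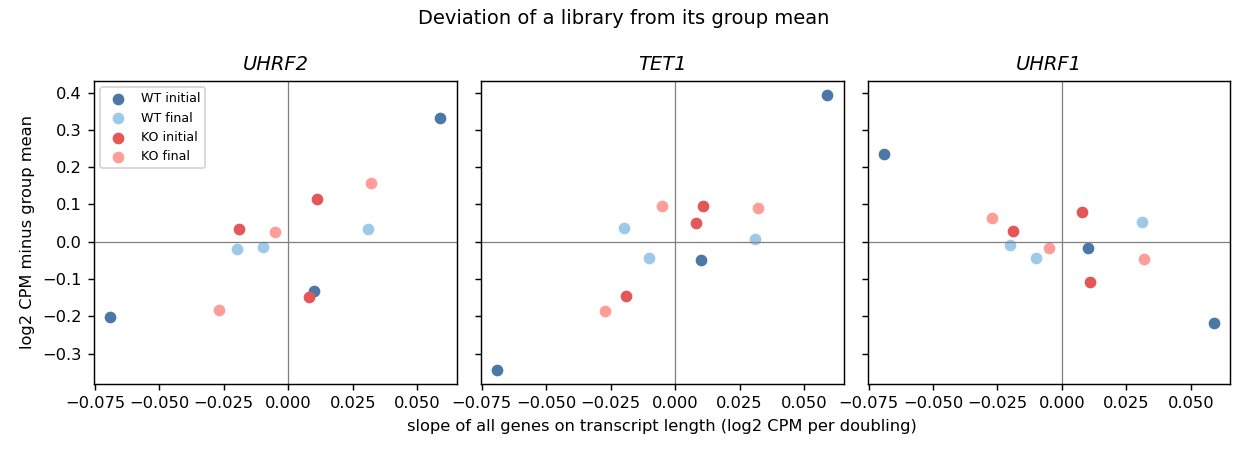
Deviation of each of the 12 libraries from its group mean (vertical axis, log2 CPM), for UHRF2, TET1 and UHRF1. The horizontal axis is the slope on transcript length in that library (log2 CPM per doubling). It was fitted with GC content to deviations from the group mean, over genes with a mean log2 CPM of 1 or more. The initial wild-type libraries 1 and 2 sit at the right and left ends, high and low for UHRF2 and TET1 and the reverse for UHRF1.

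Lists of genes that work with the 9 were read from the same fit, and in the average genotype comparison the shares to hold them against are 14% of all tested genes called higher and 16.1% called lower. Of 24 partners in placing methylation, 23 were tested, 1 rose and 4 fell, and the median was 0.00. KDM1B, a histone demethylase needed to set imprints in oocytes, fell from 34.9 ± 1.14 to 14.4 ± 0.772 CPM at the initial harvest (log2 fold change -1.28, SE 0.0916, adjusted p = 5.5e-08 in edgeR) and from 33.9 ± 2.97 to 17.5 ± 1.35 CPM at the final one (-0.96, SE 0.0907, adjusted p = 9.93e-07 in edgeR; SD, n = 3 each). Its neighbours on chromosome 6 were low as well: of 8 genes within 1 Mb on either side (mean log2 CPM of 1 or more), 7 were called lower on average, with a median of -1.06 (initial) and -1.14 (final). L3MBTL3, which brings methylated DNMT1 to its degradation, fell by 0.36 on the log2 scale on average (SE 0.0538, adjusted p = 7.09e-05), and EHMT2, a histone methyltransferase that also methylates the ligase LIG1 bound by UHRF1, by 0.26 (SE 0.0616, adjusted p = 0.00361, both edgeR). CDCA7L (-0.22) and ZBTB24 (0.16) were the other 2 called and were named after their values were seen. CDCA7, the partner of HELLS, was at -0.11 (adjusted p = 0.184 in edgeR) and was picked out in the same way.

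Of 9 readers of methylated DNA, 0 rose and 3 fell on average, with a median of -0.09: ZBTB38 (-0.21), MBD6 (-0.26) and MBD1 (-0.16). The ZBTB38 call held with each library left out, while those of MBD6 and MBD1 were lost without 2 and 5 of the 12 libraries in turn. Of 12 genes that finish demethylation after the TET step, 0 rose and 3 fell, with a median of -0.07. GADD45A, a stress-induced gene linked to repair-based demethylation, fell at both harvests, from 51.4 ± 0.88 to 35.1 ± 2.43 CPM and from 48.6 ± 3.16 to 31.5 ± 1.18 CPM (SD, n = 3 each; -0.59 on average, SE 0.0566, adjusted p = 6.14e-07 in edgeR). Its relative GADD45B was at -0.42 on average (adjusted p = 0.0016) and POLB, the polymerase of base excision repair, at -0.34 (adjusted p = 0.00252, both edgeR). The glycosylases TDG, MBD4, SMUG1, NEIL1 and NEIL2 were among the 9 genes of that list not called.

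TET enzymes need alpha-ketoglutarate, which isocitrate dehydrogenases make, and of 12 genes in a list of TET regulators and these enzymes 1 rose and 3 fell on average, with a median of -0.13. CXXC4, whose protein binds TET2 and promotes its loss, was scarce and fell from 1.75 ± 0.244 to 0.758 ± 0.0711 CPM and from 2.67 ± 0.673 to 1.14 ± 0.182 CPM (SD, n = 3 each; -1.21 on average, SE 0.152, adjusted p = 1.32e-05 in edgeR). IDH2, the mitochondrial form, was at -0.38 (adjusted p = 0.00339) and the IDH3 subunit IDH3G at -0.26 (adjusted p = 0.00211), while the subunit IDH3A, named after its value was seen, was at 0.19 (adjusted p = 0.0216, all edgeR). Of 8 genes that supply the methyl donor, 7 were tested, 2 rose and 1 fell. MAT2B, the regulatory subunit of the enzyme that makes S-adenosylmethionine, fell by 0.40 at both harvests (adjusted p = 0.0236 and 0.0257) and on average (adjusted p = 0.00156), while MTR, methionine synthase, and MTRR, which reactivates it, rose by 0.17 and 0.18 on average (adjusted p = 0.0194 and 0.0374, all edgeR). The average MAT2B call held with each library left out. Its initial call was lost without knock-out replicate 1 or 2 of that harvest (adjusted p up to 0.103), and its final call without replicate 2 or 3 of either genotype (adjusted p up to 0.114, both edgeR). The average calls of MTR and MTRR were lost without 2 and 9 of the 12 libraries in turn.

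DNMT1, UHRF1 and HELLS are transcribed mostly in dividing cells, so 22 genes of S phase and proliferation were set beside them. In that list edgeR called 0 of 22 between genotypes at either harvest, against 19.9% and 18.5% of all tested genes, and 3 and 5 had an unadjusted p under 0.05. At the initial harvest DESeq2 and limma-voom called 0 as well, and at the final one they called 2 and 1. On average 3 rose and 0 fell, with a median of 0.07: RRM2, a subunit of ribonucleotide reductase (0.24, adjusted p = 0.02), MCM4 of the replicative helicase (0.21, adjusted p = 0.0249) and the mitotic kinase CDK1 (0.18, adjusted p = 0.0319, all edgeR). These 3 calls were lost without 5, 8 and 8 of the 12 libraries in turn. Between harvests edgeR and limma-voom called 0 of 22 in either genotype and DESeq2 1 in each, with 2 (wild type) and 1 (knock-out) at an unadjusted p under 0.05 in edgeR.

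Germline genes listed as silenced by promoter methylation were read as RNA at possible targets of the 9 enzymes. The libraries hold RNA only, so whether methylation keeps these genes silent in these cells was not tested. Of 22 such genes, 16 failed the filter on low counts, and none of these had over 8 counts in a library. DAZL, TDRD1, MAGEA2, MAGEA4, MAGEA10, GAGE1 and XAGE1A had no count in any of the 12 libraries, where a count of 0 allows up to 3 counts per library, for counting error only. MAGEB2 and MAGEA3 were expressed in every group, at 157 to 171 and 47.6 to 54.8 CPM as group means, and were not called. TEX14, a protein of the bridges between germ cells, was the 1 tested gene called, lower at the final harvest (3.33 ± 0.504 to 1.67 ± 0.0647 CPM, SD, n = 3 each, log2 fold change -0.99, SE 0.162, adjusted p = 0.000331 in edgeR). A germline gene called higher in the knock-out was found at neither harvest, with 6 of 22 tested.

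Over the 7 lists, 22 of 91 tested genes (24.2%) were called on average, against 30.1% of all tested genes, and 12 kept that average call under all 22 alternatives. These were KDM1B, L3MBTL3, EHMT2, ZBTB38, GADD45A, GADD45B, POLB, CXXC4, IDH3G, IDH2, MAT2B and TEX14. The other 10 were MBD6, MBD1, CDCA7L, ZBTB24, IDH3A, MTR, MTRR, RRM2, MCM4 and CDK1, each lost under at least 1 alternative with its sign kept.

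**Figure D5:**
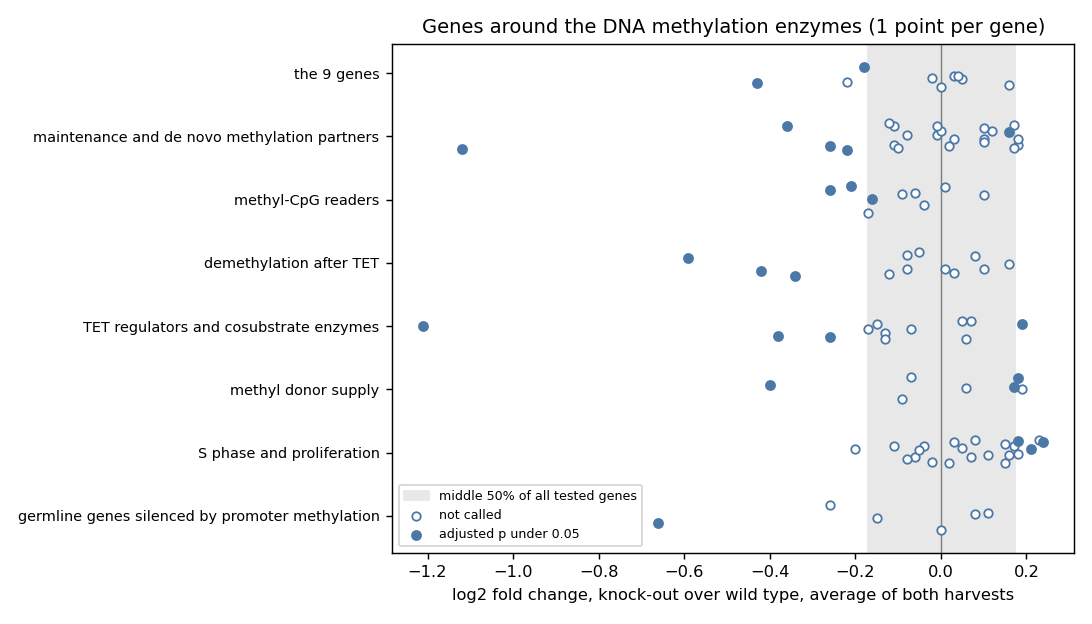
Average log2 fold change of knock-out over wild type (horizontal axis) for the 9 genes and for each tested gene of 7 lists, 1 point per gene, filled where the adjusted p-value was under 0.05, with the middle 50% of all tested genes in grey. CXXC4 (-1.21) and KDM1B (-1.12) lie far to the left, and 7 of the 9 genes are not called.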

How the data were processed

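Raw counts per gene were deposited by the authors as 1 table with a column for each of the 12 libraries, without normalization, per the file headers. STAR, featureCounts, Subread and hg38 are named in the submitters' processing notes; their versions, the annotation, the use of strand and the handling of reads with several matches are not given in the sources used here. Of 60648 genes, 60506 have a symbol, and 5 broken lines of 1 gene were left out. From the counts, filterByExpr by group kept 18289 genes, TMM factors scaled the libraries, and edgeR 4.0.16 (limma 3.58.1, R 4.3.3) fitted 1 robust quasi-likelihood model with 4 group means and 6 comparisons, without a replicate block. P-values were adjusted by Benjamini-Hochberg over all genes tested, with a threshold of 0.05; intervals are 95% and unadjusted. Totals of 38597809 to 40017561 counts and 3 libraries per group limit the precision. The script was tested on simulated counts.

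The 9 genes, the lists and the tests were chosen with earlier results of these data known. Named besides the 9 genes and MTHFD2 were, in each list, up to 3 genes with the smallest adjusted p in the average genotype comparison, if under 0.05, and, for the 3 members with the smallest adjusted p there, the 3 genes with the highest Pearson correlation of log2 CPM (mean of at least 1). Alternatives used DESeq2 1.42.0, limma-voom, other scalings and filters, fewer libraries, a replicate block, and GC and length corrections (lowess, span 0.3, on the longest GENCODE 29 transcript), the corrections added after seeing the data. Promoters are from RefSeq on GRCh38.p14.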

Additional observations from a re-analysis of the deposited data

How the results depend on the processing

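The UHRF2 calls at the initial harvest and on average held under every alternative and with each of the 12 libraries left out. The number of the 9 genes called was 1 in place of 2 on average without a filter on low counts or with upper quartile scaling and 3 with the GC correction, the length correction and the block plus GC correction (HELLS added), 1 in place of 0 at the final harvest without a filter, with only the groups compared, with the GC correction and with the replicate block plus GC correction, and 1 in place of 0 over time in the wild type with DESeq2, without a filter and with the length correction. With 1 library left out, it ran from 1 to 2 at the initial harvest, 0 to 1 at the final one, 1 to 3 on average and 0 to 1 over time in the wild type; it stayed at 0 over time in the knock-out and for the interaction. Of 1224 alternative log2 fold changes of the 9 genes, 1159 kept direction and side of the threshold, 8 lost a call, 16 gained one and 41 changed sign, the largest of those at 0.13; a value of 0.00 has no direction. The cause of these moves was not tested. The counts of all genes called that moved by over 1.5 times were those over time in the knock-out (270, with 246 to 728 under other settings and 94 to 463 with 1 library left out), over time in the wild type (1183, with 578 to 1518 and 627 to 1399), the interaction (235, with 217 to 464 and 124 to 444) and, with 1 library left out, the initial genotype comparison (3635, with 2423 to 4615).

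Signs changed with the length correction for DNMT1 (0.02) and TET3 (0.03) at the initial harvest, UHRF1 at the final harvest (0.01) and DNMT3A over time in the knock-out (-0.08). They changed with the GC correction, with and without the block, for HELLS (-0.05) and UHRF1 (0.02) over time in the knock-out and for UHRF1 at the final harvest (0.01), and with upper quartile scaling for UHRF1 there (0.01). With 1 library left out, these values crossed 0. For DNMT1 they ran from -0.05 to 0.05 (initial genotype comparison), -0.04 to 0.1 (final genotype comparison) and -0.04 to 0.12 (interaction), and for DNMT3A from -0.02 to 0.07 (average genotype comparison) and -0.06 to 0.04 (time, knock-out). For HELLS they ran from -0.17 to 0.03 (time, wild type), -0.05 to 0.09 (time, knock-out) and -0.02 to 0.18 (interaction), and for TET1 from -0.09 to 0.3 (interaction). For TET2 they ran from -0.1 to 0.11 (initial genotype comparison), -0.11 to 0.01 (final), -0.08 to 0.03 (average) and -0.16 to 0.05 (interaction), and for TET3 from -0.11 to 0.02 (initial genotype comparison). For UHRF1 they ran from -0.06 to 0.01 (final genotype comparison), -0.01 to 0.11 (average) and -0.02 to 0.2 (time, wild type), and for UHRF2 from -0.16 to 0.13 (time, wild type).

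The replicate numbers were not taken as pairs: 6 of 18 same-numbered pairs had a correlation of deviations over 0.1 (from -0.358 to 0.238), and in 14 of 36 cases a library correlated best with its own number. With the replicate block the number of the 9 genes called stayed at 1 (initial), 0 (final), 2 (average) and 0 in the other 3 comparisons. Of the list genes named, ZBTB24 lost its calls with the block (average and final harvest), and MTRR that of the initial harvest.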
